A study of Homo sapiens with 2 samples.

Results

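A set of 10 genes known as regulators of the switch from fetal to adult globin, namely ZBTB7A, NFIA, NFIX, SOX6, HIC2, POGZ, ZNF410, LIN28B, IGF2BP1 and IGF2BP3, were examined for called transcription starts in HUDEP-2 cells. They were taken by name, 10 of the 19821 protein-coding genes of the gene table, and every call inside each gene and within 50 kb on either side was collected. The cells were wild-type HUDEP-2, an immortalised line of human erythroid progenitors that makes mainly adult globin, with no treatment named in the labels and 2 biological replicates in 1 group. PRO-cap, a run-on assay that maps the 5′ ends of nascent RNA, had been applied to their nuclei, and the deposited data were 26395 called start positions with no strength, read count or value per replicate. The depth behind a call and the spread between replicates are therefore unknown, no test was made, and counts are set beside the share of all protein-coding genes that met the same rule, with 95% Wilson intervals that cover counting error only. In such bulk data, fewer cells that use a start and less RNA per cell cannot be told apart.

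Before birth, red cell precursors express the fetal gamma-globin genes. In adult cells these are silenced by DNA-binding repressors, of which BCL11A and ZBTB7A bind at the gamma-globin promoters, together with the chromatin complexes they recruit. RNA-binding proteins of fetal cells act in the opposite direction. LIN28B blocks maturation of the let-7 microRNAs, and IGF2BP1 and IGF2BP3 are among the messenger RNAs that let-7 represses.

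Of the 10 genes, 7 had a called start, that is, a call within 500 bp of the outer 5′ end of the gene on its strand. The share among all protein-coding genes was 40.9% (40.2 to 41.6, 8112 of 19821), and it was 42.9% among those whose strand the promoter table gives. The 7 genes were ZBTB7A, NFIX, SOX6, IGF2BP1, IGF2BP3, POGZ and ZNF410. NFIA joined them when every annotated start of the promoter table was counted, which gave 8 of 10, against 44.9% (44.2 to 45.6) of protein-coding genes. HIC2 and LIN28B held no call in the gene or in the 50 kb on either side. Any call in such a window was present for the other 8 of 10, against 71.9% (71.3 to 72.6) of protein-coding genes. The same 8 had a call inside the gene, against 43.3% of protein-coding genes and 47.9% of those of 100 kb or more.

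A called base of 6 of these genes lay in promoters of the RefSeq table (GRCh38.p14). They are shown for the sequence around the call, and the position of initiation is read from them only to about 1 base. For ZBTB7A the call shown is the one at -161 bp. Its nearest start call, 122 bp inside the gene, lay outside these promoters. Each line gives 41 bases on the strand of the call, and the capitals mark the called base with 1 base on each side.
ZNF410, chr14:73886839-73886879, + strand: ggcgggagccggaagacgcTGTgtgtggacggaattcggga
IGF2BP3, chr7:23470468-23470508, - strand: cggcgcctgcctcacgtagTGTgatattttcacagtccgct
SOX6, chr11:16738410-16738450, - strand: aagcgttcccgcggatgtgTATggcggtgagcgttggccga
POGZ, chr1:151459160-151459200, - strand: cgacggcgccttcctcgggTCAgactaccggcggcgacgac
NFIA, chr1:61082540-61082580, + strand: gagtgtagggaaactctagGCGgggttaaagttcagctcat
ZBTB7A, chr19:4067040-4067080, - strand: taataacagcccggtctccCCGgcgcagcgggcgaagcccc
RNA polymerase II tends to begin on a purine that follows a pyrimidine. In ZNF410, IGF2BP3 and SOX6 the called base was such a purine, and in POGZ, NFIA and ZBTB7A the purine lay 1 base after the call, so that all 6 had the step at 1 of these positions. Among 6735 sense calls in promoters of protein-coding genes, 77.8% (76.8 to 78.8) did. The step CA, which POGZ has, began at the called base in 37.2% of these calls and ended at it in 1.32%. The most frequent offset from the annotated start was -1 bp, at 20.8% of calls, followed by 0 bp at 12.2%. Offsets of -1 and 0 bp are therefore not read as different below.

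**Figure D1:**
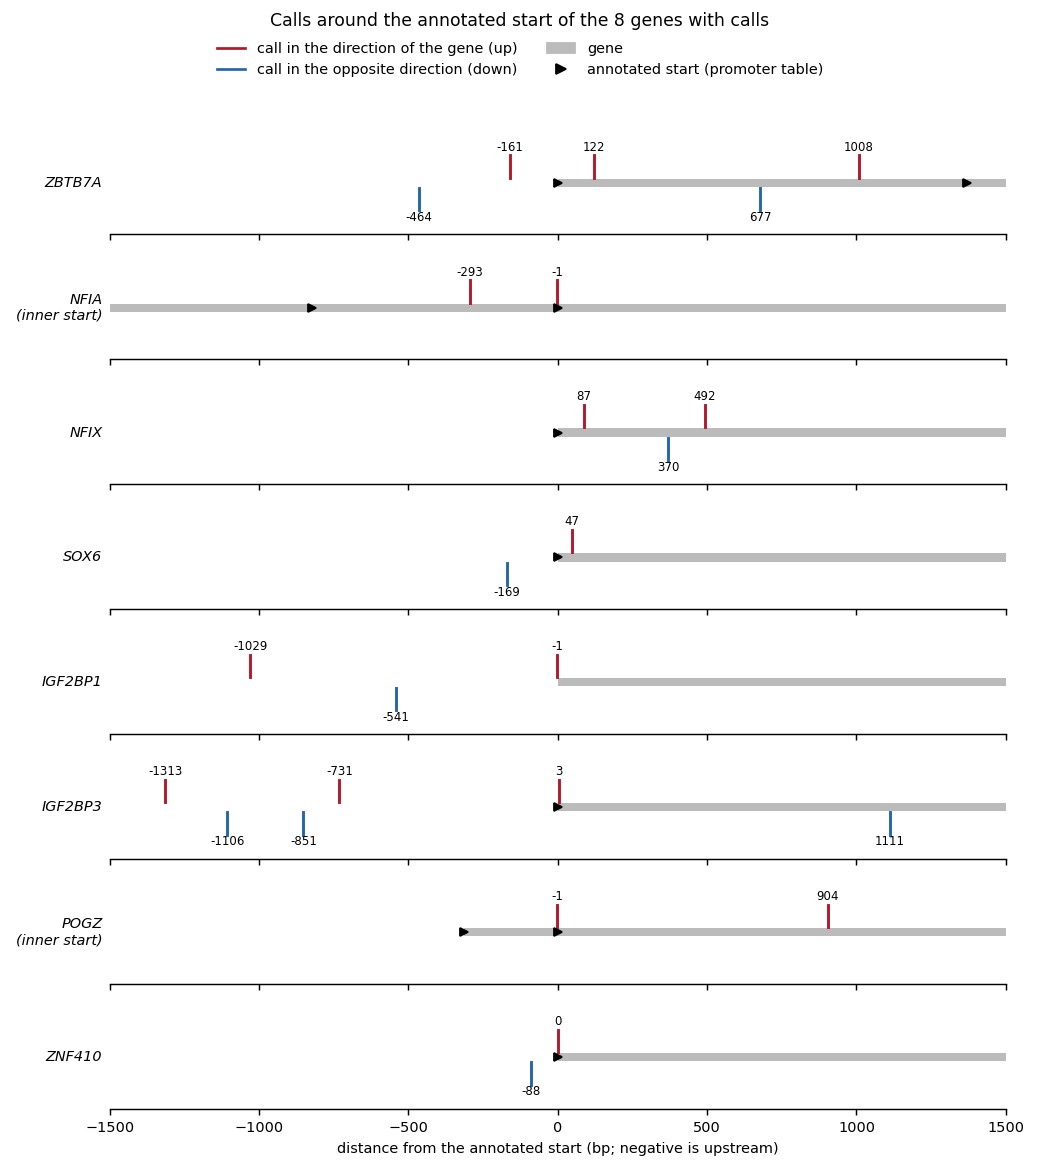
Calls within 1500 bp of an annotated start of the 8 genes with calls; the x axis gives the distance in bp from the outer 5′ end, or from the inner start at which a call lay for NFIA and POGZ. Red ticks up are calls in the direction of the gene and blue ticks down calls in the opposite direction, each with its distance. ZNF410, IGF2BP1, IGF2BP3, POGZ and NFIA have a call at -1 to 3 bp. The nearest sense calls of SOX6, NFIX and ZBTB7A lie 47, 87 and 122 bp inside the gene.

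ZBTB7A, the zinc finger repressor that binds the gamma-globin promoters, lies at chr19:4043303-4066899 on the reverse strand. Its outer 5′ end was flanked by a pair of sense calls, at 122 bp inside (4066777) and at -161 bp (4067060). A further sense call lay 1008 bp inside the gene (4065891), -362 bp from the other annotated start at 4065529. Opposite calls lay at -464, 677 and 2267 bp. No sense call of the gene had a divergent partner, defined as an opposite call 0 to 300 bp upstream. Starts thus extended over more than 1 kb at the 5′ end of this gene, and none of its 4 inside calls lay beyond 2.3 kb. In the flanks, 3 calls lay at the 5′ end of PIAS4 and a convergent pair near the 3′ end of MAP2K2. At least 2 start calls, as in ZBTB7A and NFIX, were present in 2 of the 7 called genes, against 14.3% (13.5 to 15) of protein-coding genes with a called start.

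NFIA and NFIX encode DNA-binding proteins of the nuclear factor I family. NFIA, at chr1:61077227-61462788 on the forward strand, had no sense call within 500 bp of its outer 5′ end, where the only call was an opposite one at -243 bp (61076984). The nearest sense call there lay 969 bp inside (61078196). At the innermost of its 3 annotated starts, 5334 bp into the gene, a call lay at -1 bp (61082560), with another sense call at -293 bp from that start (61082268). The third annotated start, 4512 bp into the gene, had no sense call within 500 bp. Sequence of the outer and of the innermost promoter is printed for comparison of the uncalled with the called start, 250 bases before to 50 after the annotated start, with matches to 11 promoter motifs in capitals. A match on the opposite strand appears as its reverse complement.
NFIA outer start, chr1:61076977-61077276, + strand: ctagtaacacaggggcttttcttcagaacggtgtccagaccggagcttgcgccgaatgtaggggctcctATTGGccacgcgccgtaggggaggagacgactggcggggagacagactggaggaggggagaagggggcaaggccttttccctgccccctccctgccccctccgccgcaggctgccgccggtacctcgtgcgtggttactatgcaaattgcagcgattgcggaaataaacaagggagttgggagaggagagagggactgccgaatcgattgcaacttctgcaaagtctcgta
NFIA innermost start, chr1:61082311-61082610, + strand: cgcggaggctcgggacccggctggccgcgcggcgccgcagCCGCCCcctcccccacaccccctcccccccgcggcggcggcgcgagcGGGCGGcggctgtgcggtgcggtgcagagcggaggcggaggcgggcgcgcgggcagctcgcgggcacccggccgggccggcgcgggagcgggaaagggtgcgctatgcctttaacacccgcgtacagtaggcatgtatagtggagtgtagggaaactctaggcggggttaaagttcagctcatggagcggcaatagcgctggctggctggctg
The innermost promoter had 74.3% G and C and 41 CpG steps, and the outer one 60% and 20. The median was 66% in 9012 promoters of protein-coding genes with a sense call within 500 bp, and 58.3% in 13120 without. There were 2 matches to GGGCGG, the box bound by SP and KLF proteins, in the innermost promoter, and 1 match to CCAAT, the box bound by NF-Y, in the outer one. The box GGGCGG occurred in 45% and the box CCAAT in 34.6% of all 34961 promoters of the table on chromosomes 1 to 22 and X, either strand. In the 22132 of these that belong to protein-coding genes, the shares were 56.3% and 34.6%.

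NFIA also had a pair of divergent calls 39.4 kb into the gene, at 61116545 (reverse) and 61116662 (forward), 117 bp apart. A second pair, 56 bp apart, lay 26.1 kb upstream in a stretch without annotated genes (61051072 and 61051128). Single calls accompanied it at 27.1 kb (61050136, forward), 23.3 kb (61053902, reverse) and 20.1 kb (61057106, forward). No other protein-coding gene lay within 50 kb of NFIA, and all 12 calls of its window lay in its first 93.5 kb or upstream of it. The remainder of this 386 kb gene held no call.

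NFIX, at chr19:12995475-13098796 on the forward strand, held 15 calls, 8 forward and 7 reverse, more than the other 9 genes. At its outer 5′ end sense calls lay 87 bp (12995562) and 492 bp (12995967) inside the gene, with an opposite call between them at 370 bp (12995845). That opposite call was the divergent partner of the inner sense call at 122 bp, and it was convergent with the outer one at 283 bp. None of the 4 annotated starts 28497 to 29304 bp into the gene had a sense call within 500 bp. The nearest call to them was an opposite one at 27.5 kb (13022932).

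Further calls lay deep inside NFIX. A convergent pair stood at 16.7 and 16.9 kb (13012171 and 13012331), and single calls at 17.9 and 18.5 kb (13013333 and 13013974), near the 3′ end of NFIX-AS1, a noncoding gene on the opposite strand. Divergent pairs lay 74.1 kb (13069560 and 13069681, 121 bp apart) and 84.1 kb (13079571 and 13079678, 107 bp apart) into the gene. Another, 69 bp apart, lay 30 kb upstream (12965472 and 12965541), between GADD45GIP1 and DAND5. At the 3′ end, a sense call lay 175 bp inside NFIX (13098621). LYL1, which encodes a helix-loop-helix protein of blood cells, is the next gene there and runs the opposite way. Its 5′ end had calls at 13102749 and 13103177. The NFIX window held 31 calls. Of the 7 other protein-coding genes that reach into it, 6 had a called start, and that of STX10 is not among the 31 calls. A window with at least as many calls was found for 23 protein-coding genes, NFIX included.

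The density of calls inside NFIX was 14.5 per 100 kb. Of 3350 protein-coding genes of at least 100 kb, none other was as dense, and the median was 0. With genes of at least 50 kb, 10 of 6247 were as dense, NFIX included. NFIA had 1.56 calls per 100 kb, a density that 515 of the 3350 reached, and SOX6 had 0.648, which 1173 reached. At least 15 calls inside a gene were found in 8 protein-coding genes, NFIX among them.

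**Figure D2:**
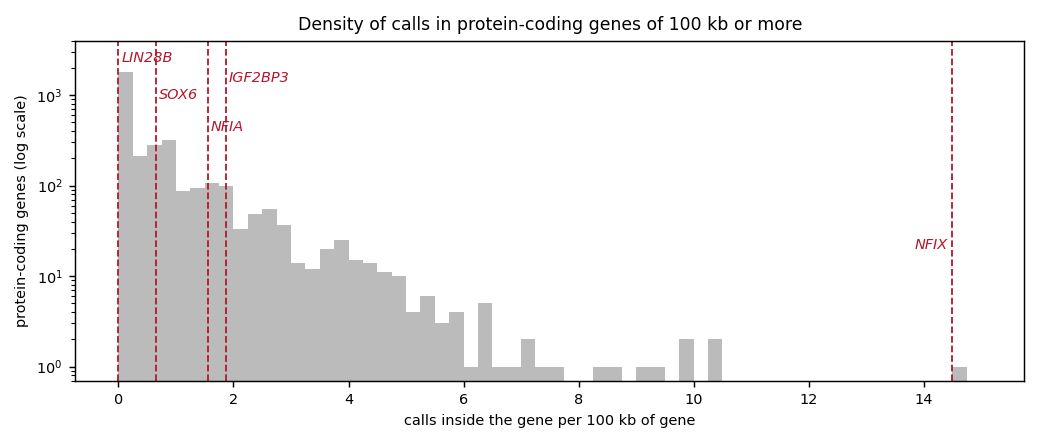
Calls inside the gene per 100 kb of gene (x axis) in the 3350 protein-coding genes of 100 kb or more, with the number of genes on a log axis. Dashed lines mark the 5 switching regulators of that length: LIN28B at 0, SOX6 at 0.648, NFIA at 1.56, IGF2BP3 at 1.87 and NFIX at 14.5, alone at the upper end.

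SOX6, an HMG-box protein that binds with BCL11A at the globin cluster, lies at chr11:15966449-16738477 on the reverse strand. It is the longest of the 10 genes, at 772 kb. Its start call lay 47 bp inside (16738430) and had a divergent partner 216 bp away (16738646). That partner lay at -1 bp from the annotated start of C11orf58, a neighbouring gene on the forward strand, so that 2 genes run head to head from this site. Each had 1 call here. PLEKHA7, the other protein-coding gene in the window, had no called start.

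None of the 4 inner annotated starts of SOX6, 262089 to 381931 bp into the gene, had a sense call within 500 bp. Their promoters had 29.7 to 41.7% G and C and 0 to 2 CpG steps, against 60% and 22 at the called outer start. Matches to TATAAA were found in 3 of the 4 inner promoters. They lay at -222 and -220 bp, at -127, -125 and 5 bp, and at -53 bp from the respective start. This motif occurred in 11.5% of all promoters, a share not matched for G and C content. A cluster of 3 calls stood apart 132 to 134 kb into the gene, with sense calls at 16606126 and 16605812 and an opposite call at 16604641. A single sense call lay 356 kb in (16382346). No distal divergent pair was found in the window of SOX6.

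HIC2 and POGZ act on BCL11A. HIC2 is a zinc finger repressor that lowers BCL11A transcription, and loss of POGZ, a nuclear protein with zinc fingers and a transposase-derived domain, lowers Bcl11a in mouse. HIC2 lies at chr22:21417371-21451463 on the forward strand. The nearest calls were 402 kb below the gene (21014953) and 116 kb above it (21567765), the last inside UBE2L3. The other protein-coding genes within 50 kb, RIMBP3B and TMEM191C, had no called start either. Both belong to families of near-identical copies, and no source used here says how reads with several matches were treated. The promoter of HIC2 is shown as that of an uncalled gene.
HIC2, chr22:21417121-21417420, + strand: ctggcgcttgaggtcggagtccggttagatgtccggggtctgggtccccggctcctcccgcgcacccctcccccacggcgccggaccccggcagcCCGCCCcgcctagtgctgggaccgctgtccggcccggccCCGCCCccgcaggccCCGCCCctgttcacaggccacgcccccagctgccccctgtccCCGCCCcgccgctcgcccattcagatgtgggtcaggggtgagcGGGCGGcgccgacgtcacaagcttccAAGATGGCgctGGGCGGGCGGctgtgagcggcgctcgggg
It had 77% G and C, above the upper quartile of 72% for promoters with a call, with 35 CpG steps. The capitals mark 7 matches to GGGCGG and 1 match to AAGATGGC, a motif of the factor YY1, at 10 bp after the start. The YY1 motif occurred in 2.89% of all promoters.

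POGZ lies at chr1:151402724-151459494 on the reverse strand. Its start call (151459180) lay 314 bp inside the outer 5′ end and at -1 bp from its other annotated start. With a window of 200 bp around the outer end, it was lost, and 6 of 10 genes had a called start. A second sense call lay 1219 bp inside (151458275), and no opposite call was found in the gene. The promoter of the inner start is printed because the call coincides with it.
POGZ inner start, chr1:151459130-151459429, - strand: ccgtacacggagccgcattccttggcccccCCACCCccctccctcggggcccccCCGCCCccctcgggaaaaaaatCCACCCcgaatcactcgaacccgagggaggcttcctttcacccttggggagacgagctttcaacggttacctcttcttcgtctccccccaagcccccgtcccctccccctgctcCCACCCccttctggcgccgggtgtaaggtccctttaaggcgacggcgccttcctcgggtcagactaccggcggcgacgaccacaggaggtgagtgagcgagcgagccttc
This promoter had 67% G and C, 3 matches to CCACCC, a box bound by KLF proteins, and 1 to GGGCGG. The promoter of the outer start had 48% G and C, 3 matches to CCAAT and 1 to GGGCGG at -18 bp. The box CCACCC occurred in 34.3% of all promoters. The other 3 calls of the window lay at the start of SELENBP1, inside SELENBP1, and at -118 bp from PSMB4, the last pointing away from that gene.

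ZNF410, a zinc finger protein, activates CHD4, which encodes a remodeller of the NuRD complex. It lies at chr14:73886859-73932521 on the forward strand. Its single inside call fell on the annotated start itself (73886859), with a divergent partner 88 bp away (73886771). No other call lay in the gene. Its promoter is printed because the call and the annotated start coincide.
ZNF410, chr14:73886609-73886908, + strand: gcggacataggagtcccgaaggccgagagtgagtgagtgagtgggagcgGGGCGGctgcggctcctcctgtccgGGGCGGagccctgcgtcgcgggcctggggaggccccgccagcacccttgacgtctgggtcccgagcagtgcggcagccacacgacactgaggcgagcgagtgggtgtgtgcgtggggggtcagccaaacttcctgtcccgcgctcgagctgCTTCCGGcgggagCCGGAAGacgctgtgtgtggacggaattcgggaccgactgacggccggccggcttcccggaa
The promoter held 2 matches to CCGGAAG, an ETS-type motif, at -25 and -12 bp, on opposite strands, and 2 to GGGCGG. The ETS-type motif occurred in 10.3% of all promoters. CHD4 itself had a called start at -31 bp (6607410 of chromosome 12). The other 3 calls in the window of ZNF410 lay at PTGR2 and COQ6.

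LIN28B, at chr6:104937026-105083332 on the forward strand, held no call. The nearest calls lay 77.2 kb below the gene, at the 5′ end of HACE1 (104859861), and 320 kb above it, at an end of PREP (105403052). The single other protein-coding gene in its window, POPDC1, had no called start. Its annotated starts 3939 and 20081 bp into the gene are in the promoter table. The first of these had 73% G and C and 37 CpG steps with 2 matches to GGGCGG, and the other 39% and 8 CpG steps with 2 matches to AGATAA, a motif of GATA factors, and 1 to the CCAAT box. The GATA motif occurred in 10.3% of all promoters. The same pattern as in LIN28B and HIC2, with no start, no other sense call and no distal pair inside, was found in 52.8% of protein-coding genes.

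IGF2BP1 and IGF2BP3, RNA-binding proteins that are abundant in fetal cells, both had a called start close to the annotated end. IGF2BP1 lies at chr17:48996558-49056145, and the promoter table does not list it, so that a call pointing into the gene at either end was counted. The start call lay at -1 bp (48996557) and was forward. Other forward calls lay at -1029 bp (48995529), 1776 bp (48998334) and 25 kb (49021572), and a reverse call at -541 bp (48996017). No call of the window had a divergent partner within 300 bp. GIP, the other protein-coding gene in this window, had no called start.

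IGF2BP3 lies at chr7:23310209-23470491 on the reverse strand. Its start call lay 3 bp inside the gene (23470488), without a divergent partner. Upstream of it, 8 calls outside any annotated gene spread from -731 to -4292 bp. The nearest of these, at -731 (23471222, sense) and -851 bp (23471342, opposite), formed a divergent pair 120 bp apart. The next, at -1106 and -1313 bp, were convergent, 207 bp apart. Those at -2616, -3276, -3859 and -4292 bp had no partner within 300 bp, although the last 2 were in the divergent arrangement beyond that limit. A divergent pair 116 bp apart lay 20 kb upstream at the pseudogene RPS2P32 (23490420 and 23490536). Opposite calls lay 1111 bp and 43.3 kb inside the gene. The promoter of IGF2BP3 is printed as the one called promoter, of those of the 10 genes in the table, without a match to any of the 11 motifs.
IGF2BP3, chr7:23470442-23470741, - strand: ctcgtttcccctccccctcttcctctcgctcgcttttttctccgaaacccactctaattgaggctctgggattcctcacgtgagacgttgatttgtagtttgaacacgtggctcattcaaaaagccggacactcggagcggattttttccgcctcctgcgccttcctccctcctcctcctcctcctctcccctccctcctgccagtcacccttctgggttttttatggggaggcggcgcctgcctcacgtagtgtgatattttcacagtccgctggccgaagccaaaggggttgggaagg
It had 56.3% G and C, below the lower quartile of 60% for promoters with a call, and 17 CpG steps, against a median of 28.

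**Figure D3:**
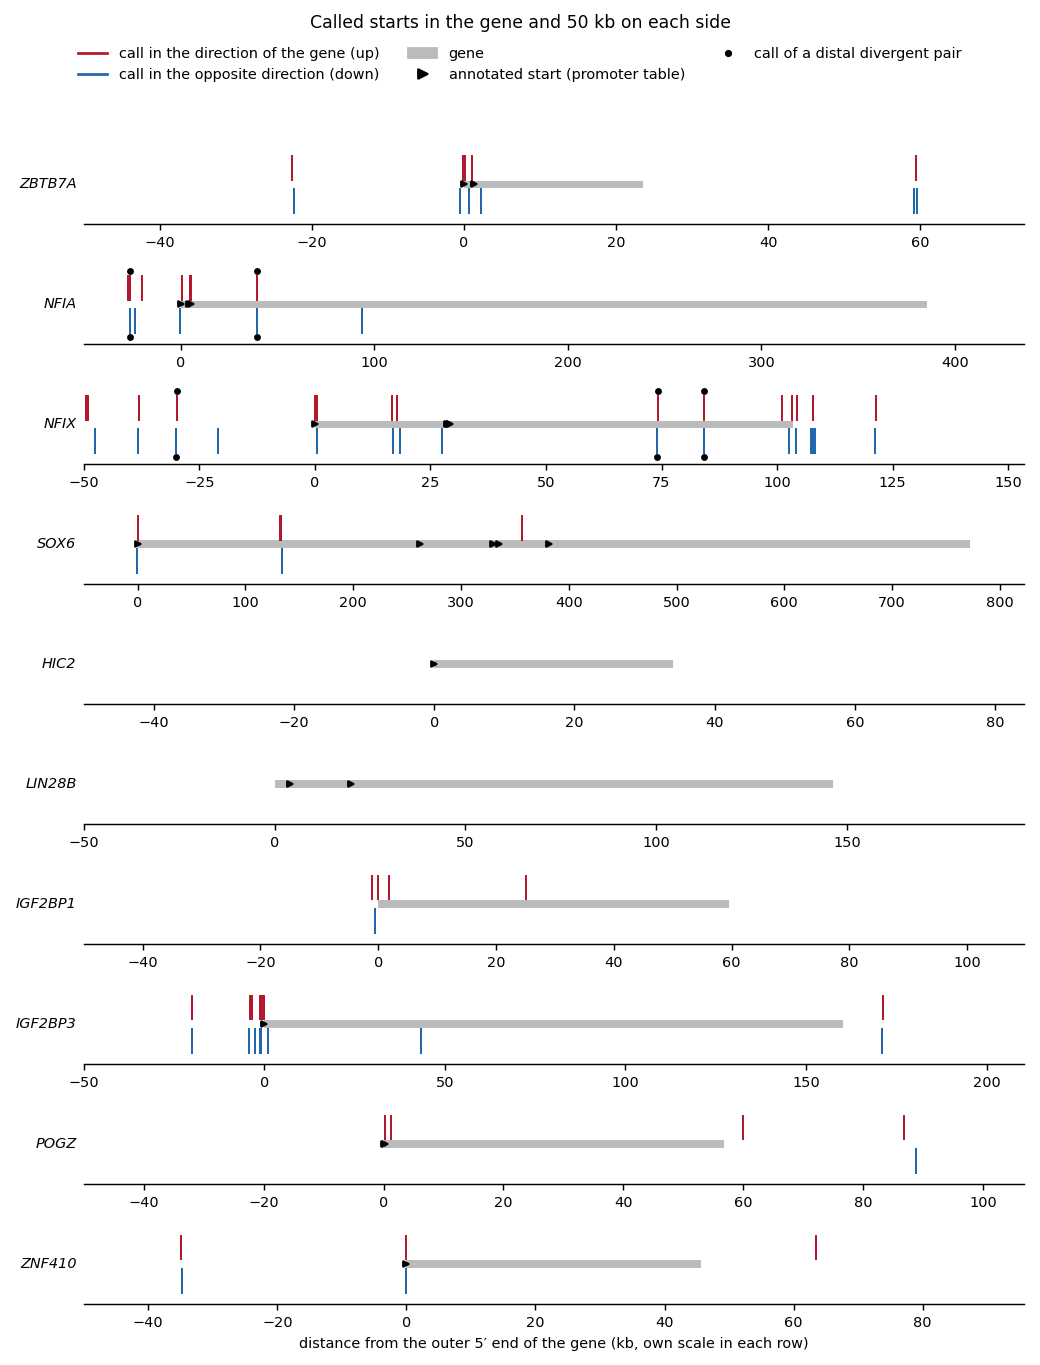
All 90 calls in the windows of the 10 genes, 1 row per gene, by distance in kb from the outer 5′ end (own scale in each row). Red ticks up run in the direction of the gene and blue ticks down against it, grey bars are genes, triangles annotated starts of the promoter table and dots calls of distal divergent pairs; NFIX has 31 calls, IGF2BP3 a run of calls upstream, and HIC2 and LIN28B none.

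Over all 10 windows there were 90 calls, of which 38 lay inside the 10 genes and 52 in the flanks. By direction, 49 ran with the gene and 41 against it, counting forward as with the gene for IGF2BP1. Of the 90, 26 lay at a gene end and pointed into that gene, 19 pointed away from a gene end, 29 lay elsewhere inside genes and 16 outside genes. The windows held 5 of the 921 distal divergent pairs of the genome, of which each call keeps over 1000 bp to the nearest gene end. All 5 were at NFIA and NFIX, so that 2 of 10 genes had a pair within 50 kb, against 9.83% (9.43 to 10.3) of protein-coding genes and 9.16% of those of 100 kb or more. Both also had a pair inside the gene, against 2.91% of protein-coding genes. That share covers genes of any length, while NFIA and NFIX are 386 and 103 kb long. NFIA and NFIX kept their pairs when starts of the promoter table also counted as gene ends, again 2 of 10, against 6.85%.

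A divergent partner of the start call nearest to the outer 5′ end was found for SOX6 and ZNF410, 2 of the 7 called genes, against 50.8% (49.7 to 51.9) of called protein-coding genes. With any start call counted, NFIX was added through its call at 492 bp, which gave 3 of 7, against 53.2% (52.1 to 54.3). ZBTB7A was not counted, although an opposite call lay just over 300 bp upstream of its start call at -161 bp. Further sense calls inside the gene were found in 5 of the 7, namely ZBTB7A, NFIX, SOX6, IGF2BP1 and POGZ, against 17.1% (16.3 to 18) of called protein-coding genes. Gene length was not matched in this comparison. The start call nearest to the outer 5′ end lay from -1 to 314 bp in the 7 genes. In ZBTB7A and POGZ it was more than 100 bp from that end, as for 12.3% of called protein-coding genes. The second start calls of ZBTB7A and NFIX lay at -161 and 492 bp. The median of the nearest start call over called protein-coding genes was 4 bp inside, with quartiles of -1 and 32 bp.

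**Figure D4:**
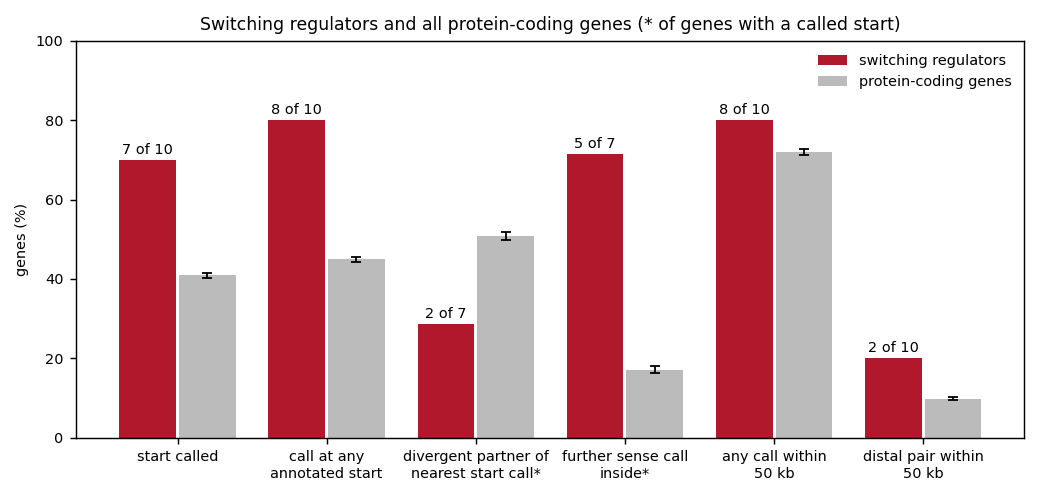
Share of genes (%, y axis) with each feature, for the 10 switching regulators in red, with their counts, and for all protein-coding genes in grey, with 95% Wilson intervals; asterisks mark features counted among genes with a called start. The regulators are higher for called starts and further sense calls and lower for divergent partners of the start call nearest to the outer 5′ end, on 10 or 7 genes.

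Relatives of the 10 genes in the same families were without a called start. None of 10 had one, namely ZBTB7B, ZBTB7C, NFIB, NFIC, SOX5, SOX13, HIC1, LIN28A, IGF2BP2 and POGK, against 40.9% of protein-coding genes. Calls inside the gene were present in 6 of the 10, against 43.3% of protein-coding genes, with 7 in NFIC, 2 each in ZBTB7B and IGF2BP2, and 1 each in ZBTB7C, NFIB and POGK. Counting every start of the promoter table also gave 0 of 10. Of 25 other regulators of fetal globin, 21 had a called start, against the same 40.9%. Among them were ATF4, a stress response factor, BACH1, a haem-responsive repressor, CHD4 and the DNA methyltransferase DNMT1. BCL11A, BMI1, EHMT2 and MTA1 had none at the outer end, and BCL11A had a call at another annotated start. In the list of fetal-type RNA regulators and growth genes, 3 of 8 had a called start, against 40.9% of protein-coding genes. These were IGF2BP1, IGF2BP3 and ARID3A. This list overlaps the 10 genes, since LIN28B, IGF2BP1 and IGF2BP3 belong to both. DLK1, H19, HMGA2, IGF2 and LIN28B had none. These lists were made with earlier results of these data known and are descriptions.

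The erythroid identity of the cells was checked on markers. Of 14 erythroid markers 11 had a called start, against 40.9% of protein-coding genes, with EPB42, GYPB and TAL1 the exceptions. All 14 held a start or a call inside. No start was called at the fetal and embryonic globin genes HBG1, HBG2, HBE1 and HBZ (0 of 4), of which HBG1 and HBG2 are near-identical copies. Markers of myeloid cells (0 of 4), lymphoid cells, megakaryocytes and stromal cells (0 of 3 each) had none, against the same 40.9%. Among 3 stem cell markers HLF had a called start.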

How the data were processed

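PRO-cap starts had been called in wild-type HUDEP-2 cells (2 biological replicates, 1 group), and the replicates share 1 list. The deposited files give each call as a 1-base position on hg38, 1 file per strand, with a score of 0 throughout. BWA 0.7.16a, Picard, SAMtools 1.17 and deepTools 3.5.4 are named with hg38 in the submitters' processing notes, without their roles. The sources used here give neither the threshold of the caller nor how replicates were combined. The number of reads behind a call is unknown, so a missing call means that no start was listed, not that none was used.

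Calls on chromosomes 1 to 22 and X (26332 of 26395) were set against 58419 genes of the RefSeq table (GRCh38.p14, an hg38 build), of which 19821 code for proteins; 679 entries on scaffolds outside these chromosomes were not used. Strand and further annotated starts came from the RefSeq promoter table, which held 9 of the 10 genes and 15812 of the protein-coding genes. Without a strand, as for IGF2BP1, a call within 500 bp of either end that pointed into the gene was counted. A distal divergent pair had both calls over 1000 bp from every gene end and at most 300 bp apart. Outward calls were assigned to a gene end from 1000 bp outside to 500 bp inside it.

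Motifs were searched on both strands, with overlapping matches counted: TATAAA (the TATA box), CCAAT (NF-Y), GGGCGG (SP and KLF proteins), CCACCC (KLF proteins), AGATAA (bound by factors such as GATA1), the similar TGATAA (likewise), CCGGAAG (ETS proteins), TGACGTCA (the CRE), the palindromic NRF1 motif, AAGATGGC (YY1) and the sequence TGACCA (a nuclear receptor motif). Both GATA motifs end in the same letters but cannot share a match. The second GATA motif occurred in 7.51% of all promoters, the CRE in 1.85%, the NRF1 motif in 1.24% and the nuclear receptor motif in 10.7%.

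All 10 genes are named, with the genes at which calls of their windows lay. For each list, all genes on a side are named where 5 or fewer, otherwise the first 4 by alphabet. The relatives and the let-7 genes and hosts are exceptions and are all named. Of the markers, only the uncalled erythroid ones, the fetal and embryonic globin genes and HLF are named. The genes, lists and motifs were chosen with earlier results of these data known. Alternatives covered the distances, strand use, annotated starts and window. Python 3.11.15, pandas 2.3.3, numpy 2.4.6, scipy 1.17.1 and matplotlib 3.10.9 were used. The finding of called starts, divergent partners and distal pairs was tested on simulated calls, and the other steps were not.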

Additional observations from a re-analysis of the deposited data

How the results depend on the processing

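Of 30 alternative values for the main counts, 27 stayed within 1.5 times of the value reported. Divergent partners fell to 1 of 7 with a partner within 150 bp, where SOX6 was lost, and numbered 3 with any start call counted (added after the data were seen). The calls counted were 38 in the genes alone and 137 with 100 kb on each side, against 90 with 50 kb. Called starts numbered 6 of 10 within 200 bp of the outer end (without POGZ), 8 within 1000 bp (with NFIA) and 7 without use of strand. The same settings gave 7513, 8607 and 8207 of the protein-coding genes. Counting every annotated start (added after the data were seen) gave 8 of 10 and 8896, and with strand known (also added) 6789 of 15812 genes had a called start. A distal pair was found near 2 genes, and near 3 with a pair within 500 bp or with ends of protein-coding genes only. Each of these settings added IGF2BP3. The first did so through its calls at -3859 and -4292 bp, the second through the pair at RPS2P32. Promoter-table starts counted as gene ends (added) left the number of genes at 2. For single genes, 13 window counts stayed within that range and 17 did not. LIN28B gained its 1 call, at HACE1, with 100 kb. No paired analysis was possible because the calls carry no value per replicate. For the same reason no replicate could be left out, and the score of 0 gave no stricter threshold.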

Other observations

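The let-7 microRNAs, which LIN28B keeps from maturing, were examined as its targets. Among 17 let-7 genes and host genes, 13 had a call within 500 bp of a 5′ end, against 40.9% of protein-coding genes, and MIR99AHG, MIRLET7A1HG, MIRLET7BHG and MIRLET7C had none. Of the 17, 12 are microRNA genes, for which no share by this rule is given, so the 2 shares cover unlike kinds of gene. For 11 of the 13 the nearest such call lay at the end of a mature microRNA, that of MIRLET7A1 in the case of MIRLET7F1, so the count is not one of promoters. The other 2 are the host genes WDR82 and HUWE1. MIRLET7I had 3 calls by this 500 bp rule, not only the one at the microRNA end, and the nearest had a divergent partner 195 bp away. In 10 of 12 hairpins of the family, miR-98 included, a call lay within 1 base of the first base of the 5p mature microRNA. Such a call lay at 0 bp in MIRLET7B, MIRLET7D, MIRLET7E, MIRLET7F2, MIRLET7G, MIRLET7I and MIR98, and at -1 bp in MIRLET7A1, MIRLET7A2 and MIRLET7A3. MIRLET7C and MIRLET7F1 had none. Across 1558 hairpins of the RefSeq table, 47 (3.02%) had a call within 20 bp, and in 16 of these 47 (34%) it lay within 1 base of a mature end, the 10 of the let-7 family included. The mature sequences are printed because the call falls on or beside their first base, with the seed (bases 2 to 8) in capitals.
hsa-let-7a-5p: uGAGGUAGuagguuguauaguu
hsa-let-7b-5p: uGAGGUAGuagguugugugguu
hsa-let-7g-5p: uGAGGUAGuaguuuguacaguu
hsa-miR-98-5p: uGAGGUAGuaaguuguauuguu
All 4 share 1 seed. These positions are ends of the processed microRNA, so the calls at them are not counted here as promoters. Why calls lie there was not tested.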
